A study of Rattus norvegicus with 49 samples.

Results

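The livers described here came from 5 female rats given furan at 0.12 mg/kg and from 5 control females given 0 mg/kg. They were chosen by the dose and sex in the labels, and make up 10 of the 49 arrays of the series. All 10 were F344 rats, an inbred strain, 7 to 8 weeks old when treatment began. Corn oil, with or without furan, was given to every rat by gavage on 5 days a week for 90 days. The series holds livers of both sexes at 5 doses, which were compared to learn how transcripts respond as the dose of furan rises. Liver RNA carried Cy5 and a universal rat reference RNA from mixed tissues carried Cy3 on the same array, with no dye swap. Every value below is therefore a log2 ratio of liver over reference for 1 probe, and a change is a difference of such ratios between groups.

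Furan is a small volatile compound that forms when food is heated. In the liver it is oxidised, mainly by CYP2E1, to a reactive dialdehyde that binds to proteins and to glutathione, and high doses injure hepatocytes and bile ducts in rats. Genes that report on such injury include the oxidant-induced NRF2 targets, the DNA damage targets of p53 and the chaperones of the endoplasmic reticulum. The steady-state liver transcriptome also follows the daily clock, feeding and glucocorticoids, which are hormones of the adrenal gland.

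The arrays lay on 8 slides, and both groups were present on slides 1, 2 and 7. Treated animal 42 shared slide 1 with control 7, treated animal 49 shared slide 2 with control 11, and treated animal 51 shared slide 7 with control 4. Controls 9 and 2 were on slides 3 and 4, and treated animals 44 and 45 were on slides 5 and 6, which held no control array. In the liver channel, 58.0% to 71.1% of spots were well above background in controls. The shares were 62.1%, 62.7% and 52.4% in treated animals 42, 49 and 51, but 43.2% and 46.0% in animals 44 and 45. The other arrays on slides 5 and 6, of both sexes and at doses from 0.03 to 2 mg/kg, were at 37.9% to 45.3%. In this comparison the low liver signal of these slides falls on treated animals alone, and slide was kept as a block in the model for this reason. A fitted change can therefore differ from the plain difference of the group means.

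At 0.12 mg/kg in females, Baiap2l1 was the only gene called, and it was higher. Its probe was 1 of 17661 tested (0.00566%) to be called, which required both an adjusted p up to 0.05 and a fold change of 1.5 or more. A second probe, A_64_P130873, had the same adjusted p of 0.0344 but changed by less than 1.5-fold. It has no gene name here, its change was -0.48 ± 0.09 (SE) on the log2 scale, and it was well above background in 5 controls and in only 1 treated liver. At an unadjusted p under 0.05, limma listed 1067 probes (6.04%), of which 449 were higher (2.54%) and 618 lower (3.5%). The median change over all tested probes was -0.03 on the log2 scale, and changes ran from -1.45 to 1.40. The 95% interval of the change lay within 1.5-fold in either direction for 83.8% of the probes and within 2-fold for 96.8%. For most transcripts, a change of 2-fold or more was thus outside the interval, while changes inside the interval were not resolved by 5 animals a group.

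**Figure D1:**
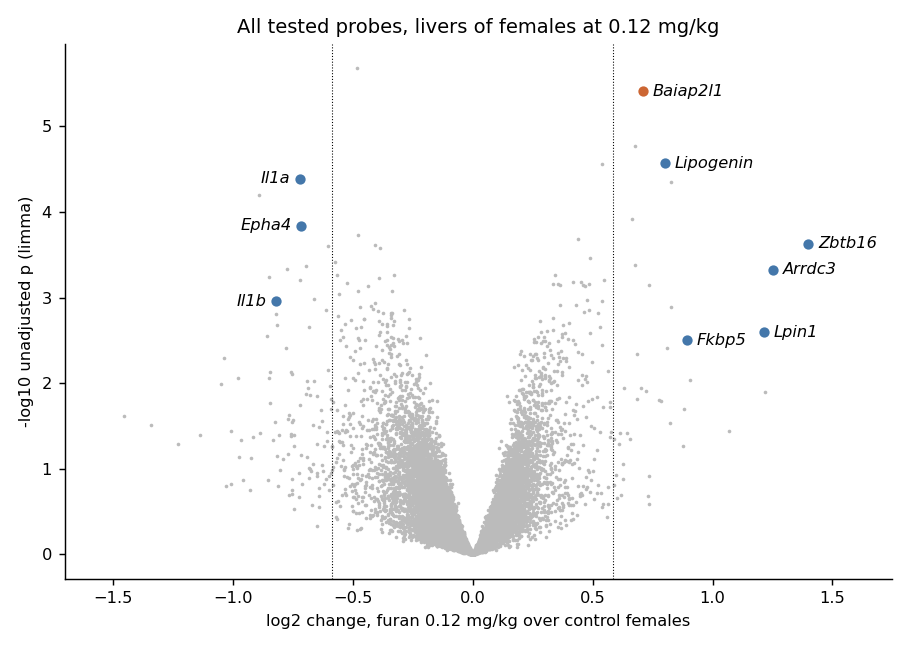
Log2 change (x axis) against -log10 of the unadjusted limma p (y axis) for each of the 17661 tested probes, with 5 females at 0.12 mg/kg and 5 controls. Dotted lines mark 1.5-fold. The called Baiap2l1 probe is orange, and labelled genes in blue were not called: Zbtb16 has the highest change, 1.40, but a higher p than Lipogenin or Il1a.

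The promoter windows of 3 genes are shown because they lead the comparison: Baiap2l1 is the called gene, and Lipogenin and Il1a are the named genes with the next smallest p among those higher and lower by 1.5-fold or more. Each window runs from 250 bases before the start of the gene to 50 bases after it, 5′ to 3′ on the strand of the gene, in RefSeq's GRCr8 assembly. The windows lie at chr12:15363904-15364203 on the plus strand (Baiap2l1), chr4:58321481-58321780 on the plus strand (Lipogenin) and chr3:136989968-136990267 on the minus strand (Il1a). Capitals mark matches on either strand to the letters TATAAA, the core of the TATA box, and AGAACA, the core of a glucocorticoid receptor site. These matches do not overlap each other.
Baiap2l1: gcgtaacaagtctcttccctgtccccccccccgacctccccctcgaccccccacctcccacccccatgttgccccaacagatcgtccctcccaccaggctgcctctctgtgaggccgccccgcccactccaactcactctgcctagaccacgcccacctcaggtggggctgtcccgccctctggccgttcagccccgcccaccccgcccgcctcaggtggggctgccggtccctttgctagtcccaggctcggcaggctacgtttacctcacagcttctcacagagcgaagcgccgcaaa
Lipogenin: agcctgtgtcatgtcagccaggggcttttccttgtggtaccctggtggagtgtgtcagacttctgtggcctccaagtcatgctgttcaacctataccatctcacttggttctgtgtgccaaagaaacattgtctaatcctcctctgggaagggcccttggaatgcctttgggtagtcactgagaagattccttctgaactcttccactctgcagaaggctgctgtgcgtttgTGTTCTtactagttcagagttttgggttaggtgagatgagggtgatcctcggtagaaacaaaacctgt
Il1a: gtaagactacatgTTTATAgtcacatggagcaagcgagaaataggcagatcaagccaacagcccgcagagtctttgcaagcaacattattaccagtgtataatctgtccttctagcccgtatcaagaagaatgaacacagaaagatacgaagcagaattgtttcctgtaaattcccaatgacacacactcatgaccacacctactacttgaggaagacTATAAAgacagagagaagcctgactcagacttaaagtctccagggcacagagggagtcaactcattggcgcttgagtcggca
The Baiap2l1 window held neither set of letters, and 68.3% of its bases were G or C. In the Il1a window, where this share was 44.3%, TATAAA was matched 32 bases and 237 bases before the start. Lipogenin had a G and C share of 49% and 1 match to AGAACA, 18 bases before the start. Of 33469 windows of this length in the table, 14.2% held TATAAA and 20.7% held AGAACA, so that neither match is rare. The table had a window for 27 of the 35 named genes.

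Baiap2l1 codes for an adaptor protein of the insulin receptor substrate p53 family, which links membranes to the actin skeleton. Its log2 ratio by probe A_64_P035936 was 0.07, 0.19, 0.17, 0.64 and 0.49 in controls 7, 11, 9, 2 and 4. After furan it was 1.01, 1.08, 0.61, 0.47 and 0.97 in animals 42, 49, 44, 45 and 51. Animals 42, 49 and 51 lay above every control, while animals 44 and 45, on the slides with low liver signal, lay among them. Baiap2l1 rose by 0.71 ± 0.13 on the log2 scale (95% interval 0.45 to 0.97), or 1.64-fold, with an adjusted p of 0.0344 by limma. Within slides 1, 2 and 7 the treated animal was higher than its control by 0.94, 0.89 and 0.48. The plain difference of the group means was 0.52. A second probe for this gene, A_64_P062133, was 0.83 ± 0.18 higher but was not called (adjusted p 0.113). With that probe, animals 42, 49 and 44 exceeded every control.

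The Baiap2l1 call was fragile, although its size was not. The change lay between 0.51 and 0.79 in all 26 other settings tried, but the call passed in 7 of them. It was lost without treated animal 42, 49, 44 or 45, without control 7, 11, 9 or 4, and without animals 44 and 45 together (0.67, adjusted p 0.210), and was kept without control 2 or animal 51.

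**Figure D2:**
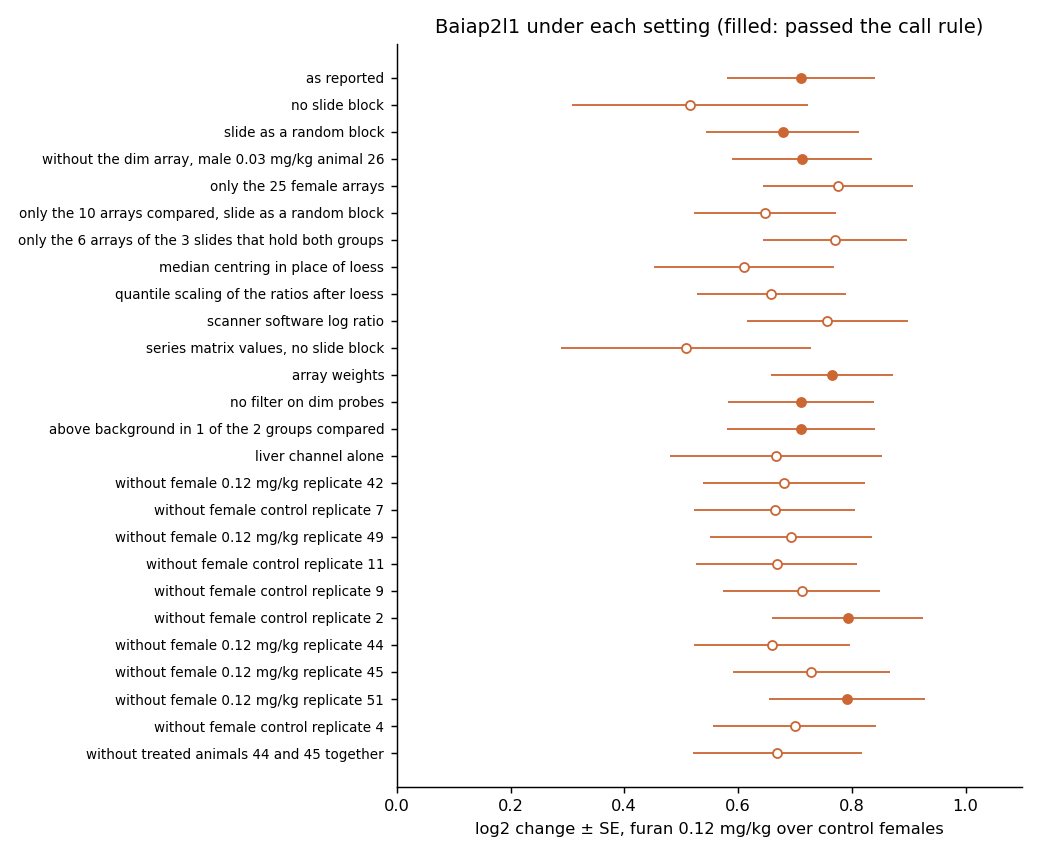
Log2 change of Baiap2l1 probe A_64_P035936 with its SE (x axis) as reported and under each other setting except the test against 1.5-fold (y axis), for 5 females at 0.12 mg/kg against 5 controls. Filled points passed the call rule. All points lie between 0.51 and 0.79, and most are open.

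Among named genes at or past 1.5-fold, Lipogenin had the smallest p after Baiap2l1 among those higher. These rankings are not calls. Lipogenin stood at -0.93, -1.38, -1.16, -1.45 and -0.75 in controls 7, 11, 9, 2 and 4, and at -0.39, 0.10, -0.17, -0.02 and -0.37 in animals 42, 49, 44, 45 and 51. All 5 treated livers lay above all 5 controls. The change was 0.80 ± 0.17 (adjusted p 0.0969), and 0.90 without animals 44 and 45. It passed the call rule with slide as a random block (adjusted p 0.0312) and with array weights (adjusted p 0.00909). Its spot was well above background in 5 controls and in 4 treated livers. Groups that did not overlap were found for 57 higher probes (0.323%) and 192 lower probes (1.09%), so this separation was not particular to Lipogenin. Mcm10, which starts DNA replication, was separated in the same way (0.68 ± 0.17, adjusted p 0.326), but was well above background in only 1 of 5 controls and 2 of 5 treated livers.

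Other ranked genes were high in part of the treated animals. Zbtb16 codes for a zinc finger repressor that glucocorticoids induce in many tissues. Its log2 ratio was 0.33, 0.26, 1.0, 0.82 and 0.37 in controls 7, 11, 9, 2 and 4, and 1.87, 2.55, 1.09, 0.23 and 0.33 in animals 42, 49, 44, 45 and 51. Animals 42, 49 and 44 exceeded every control and animal 45 lay below all of them. The spot was not well above background in control 4 and in animals 45 and 51. Zbtb16 had the highest fitted change of any tested probe, 1.40 ± 0.34, and was not called (adjusted p 0.291). Without animal 51 it reached 1.80 and passed the call rule (adjusted p 0.0252), as it did with array weights.

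Arrdc3, an alpha-arrestin that guides adrenergic receptors to degradation, showed the same animals at the top. Controls ranged from 0.36 to 0.89, and animals 42, 49, 44, 45 and 51 gave 2.71, 2.65, 1.87, 0.38 and 0.89. Its change was 1.25 ± 0.33 (adjusted p 0.326). Lpin1, a phosphatidate phosphatase that also acts as a coactivator of fatty acid oxidation genes, gave 1.87, 1.83, 1.30, 0.79 and 0.80 in these animals, against -0.01 to 1.67 in controls. For Fkbp5, a cochaperone of the glucocorticoid receptor, the values were -0.38, -0.46, 0.52, -0.83 and -1.13, against -1.51 to -0.97. Lpin1 was 1.21 ± 0.37 and Fkbp5 0.89 ± 0.28 higher, each with an adjusted p of 0.460. On slide 7, where animal 51 was set against control 4, the differences were -0.04 for Zbtb16, 0.27 for Arrdc3, -0.87 for Lpin1 and -0.16 for Fkbp5. The excess of these 4 genes thus came mainly from animals 42, 49 and 44.

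**Figure D3:**
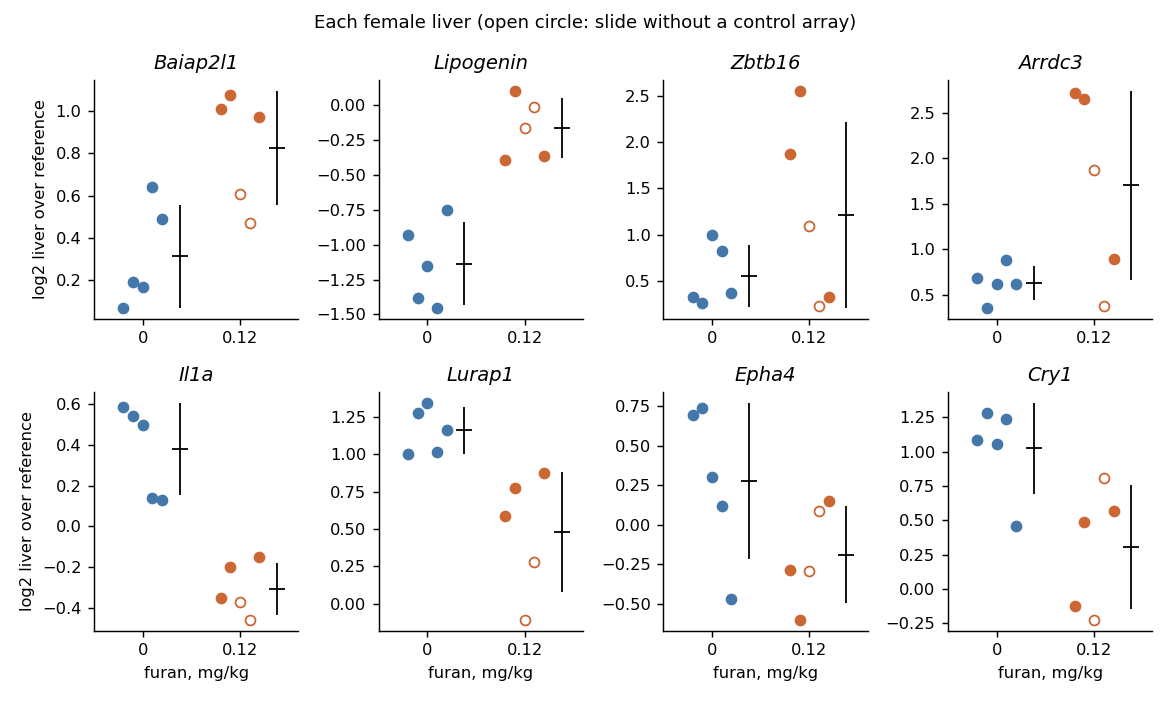
Log2 ratio of liver over reference (y axis) for each control (blue) and furan 0.12 mg/kg (orange) female for 8 genes, with the group mean and SD in black (n = 5). Open circles are animals 44 and 45, whose slides held no control. Lipogenin, Il1a and Lurap1 separate the groups, while Zbtb16 and Arrdc3 are high in part of the treated animals.

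Among named genes lower by 1.5-fold or more, Il1a had the smallest p. It codes for interleukin 1 alpha, an alarm signal of injured and immune cells, and gave 0.59, 0.54, 0.50, 0.14 and 0.13 in controls 7, 11, 9, 2 and 4. In animals 42, 49, 44, 45 and 51 it gave -0.35, -0.20, -0.37, -0.46 and -0.15. All 5 treated livers lay below all 5 controls, and all 10 spots were well above background. The change was -0.72 ± 0.15 (adjusted p 0.113). It was not called as fitted here. It passed the call rule with slide as a random block, among the 25 female arrays alone (adjusted p 0.0293) and with array weights. These values are of probe A_42_P641004. Another tested probe of Il1a passed the rule neither as fitted here nor in those settings.

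Il1b, its close relative, ranged from 1.62 to 3.13 in controls and from 0.81 to 2.03 after furan, with a change of -0.82 ± 0.23 (adjusted p 0.414). Xcl1, a chemokine of T and natural killer cells, ranged from 2.06 to 3.01 and from 0.80 to 2.32 (-0.61 ± 0.18). Gdf15, a stress-induced hormone of the transforming growth factor beta family, ranged from 0.57 to 1.56 and from -0.22 to 0.65, with 4 of 5 treated livers below all controls (-0.72 ± 0.19, adjusted p 0.326). None of these 3 genes was called, although Il1b passed with array weights (adjusted p 0.0272). Another tested probe of Xcl1 is not described.

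Lurap1, which codes for an adaptor protein, gave 1.0, 1.28, 1.34, 1.01 and 1.16 in controls 7, 11, 9, 2 and 4, and 0.59, 0.77, -0.11, 0.28 and 0.87 in animals 42, 49, 44, 45 and 51. The groups did not overlap (-0.69 ± 0.18, adjusted p 0.326). The lowest 2 values came from animals 44 and 45, where the spot was not well above background, and the change was -0.51 without them.

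Epha4, a receptor tyrosine kinase for ephrins, gave 0.70, 0.74, 0.30, 0.12 and -0.47 in controls 7, 11, 9, 2 and 4, and -0.29, -0.60, -0.29, 0.09 and 0.15 in animals 42, 49, 44, 45 and 51. The groups overlapped, as control 4 lay among the treated livers and animal 51 lay above control 2. The change was -0.72 ± 0.17 (adjusted p 0.257), but on slide 7 the treated animal was 0.62 higher than control 4. Without control 4 the change was -0.99 with an adjusted p of 0.000514, which passed the call rule. It also passed without animal 51 (-0.88, adjusted p 0.0313). Another tested probe of Epha4 passed without control 4, but neither without animal 51 nor as fitted here. Of the other 9 measured Eph receptors and ephrins, none had an unadjusted p under 0.05, and their changes ran from -0.16 (Efnb3) to 0.40 (Epha3).

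Of 5 clock genes of the morning and 7 of the evening and output, 3 had an unadjusted p under 0.05, all lower. Cry1, a repressor of the daily clock, ranged from 0.46 to 1.28 in controls and from -0.23 to 0.80 after furan (-0.77 ± 0.20, adjusted p 0.326). Per2, its partner in the clock, ranged from 0.14 to 0.92 and from -0.51 to 0.32 (-0.69 ± 0.25, adjusted p 0.604), and the change of Nfil3, a clock-linked repressor, was -0.38 ± 0.11. The other morning genes, Bmal1, Npas2 and Clock, lay between -0.13 and 0.04. Among the evening and output genes, Dbp was at -0.23 ± 0.25 and Nr1d1 at 0.17 ± 0.17. No clock gene was called, although Cry1 passed the call rule with array weights (adjusted p 0.0407), and the hour of sampling for each rat is not given in the sources used here.

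The gene lists below, cell type markers included, held 446 different genes, and the brightest tested probe was read for each. Some genes, such as Elovl6, A2m, Mt2A, Me1 and Abcb1b, had another tested probe, which is not described. Over 9852 named genes with 1 probe each, 6.09% had an unadjusted p under 0.05, 0.0102% were called and 43.6% were higher. No member of any list was called. Of 12 measured glucocorticoid response genes, 3 had an unadjusted p under 0.05 and were higher, namely Zbtb16, Fkbp5 and Klf9 (0.48 ± 0.19), while the list median was -0.06 (0.12 without animal 42 and 0.11 without control 4). Classic liver targets in that list were lower or near 0, with Tat, a tyrosine-degrading enzyme, at -0.58 ± 0.34 and Tsc22d3, an anti-inflammatory mediator, at -0.03 ± 0.36. Sgk1, a kinase that corticosteroids induce, was below all controls in all 5 treated livers (-0.57 to -0.31 against -0.29 to 0.41), but its fitted change was -0.34 ± 0.24 (unadjusted p 0.166).

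Of 17 measured genes of the response to endoplasmic reticulum stress and amino acid shortage, 15 were higher, with a median of 0.14 that turned to -0.05 without slide as a block. Herpud1, which serves the degradation of misfolded proteins, ranged from 1.05 to 2.52 in controls and from 2.23 to 2.88 after furan (0.88 ± 0.36, adjusted p 0.720). Trib3, a pseudokinase induced by stress, was 0.47 ± 0.17 higher (adjusted p 0.598). The main chaperone Hspa5 was at 0.05 ± 0.16 and Ddit3, a factor of the terminal response, at 0.03 ± 0.12. Heat shock genes numbered 7, of which 3 were higher and 4 lower, with a median of -0.15.

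Among the classes linked to furan toxicity, no member was called at this dose. Of 20 measured NRF2 targets, 9 were higher and 11 lower, none with an unadjusted p under 0.05, and the median was -0.004. Nqo1 was at -0.02 ± 0.25, Hmox1 at 0.00 ± 0.16 and Gclc, which makes glutathione, at -0.28 ± 0.21. Of 14 p53 targets, 10 were higher with a median of 0.08 (-0.01 with median centring), and Tp53inp1 (0.50 ± 0.17) and Bax (0.21 ± 0.10) had an unadjusted p under 0.05. Cdkn1a, the cell cycle brake, was at 0.17 ± 0.14 and Mdm2 at 0.13 ± 0.20. Of 20 cell cycle genes, 14 were higher, with a median of 0.13 that lay between -0.03 and -0.01 with median centring, the scanner log ratio, the liver channel alone and the 6 arrays of slides 1, 2 and 7. Of 17 xenobiotic P450 and transporter genes, 11 were lower, with a median of -0.09 that lay between -0.43 and 0.10 over the 26 other settings. Cyp2e1, the enzyme that oxidises furan, was at -0.16 ± 0.31. In this list 1 gene was higher and 1 lower at an unadjusted p under 0.05. Por, which passes electrons to the P450 enzymes, was 0.52 ± 0.15 higher (adjusted p 0.426). Abcb1a, a transporter, was at -0.21 ± 0.10 (adjusted p 0.790).

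Genes of fuel use were split. Cpt1a, which admits fatty acids to mitochondria, ranged from 1.49 to 2.87 in controls and from 1.48 to 3.28 after furan (0.78 ± 0.31), and on slide 1 its difference was -0.004. Without animal 51, where it was highest, the change was 0.58. Ppara, the receptor that drives fatty acid oxidation, was 0.52 ± 0.20 higher in the fit, while its plain group means were 1.41 in controls and 1.26 after furan, so that its direction turned without slide as a block. In the list of fatty acid oxidation genes, 10 of 20 were higher, with a median of -0.01. Among 16 lipogenesis genes 10 were lower (median -0.06, but 0.08 in the 6 arrays of slides 1, 2 and 7), led by Elovl6, a fatty acid elongase (-0.84 ± 0.34). Elovl6 rested on control 4, at 2.37 against 0.35 to 0.94 in the other controls, and was at -0.52 without it. Of 15 genes of fasting and insulin action, 12 were lower, among them Irs2, an insulin receptor substrate (-0.46 ± 0.17), and Sik1, a salt-inducible kinase (-0.47 ± 0.16).

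Bile acid and cholesterol genes leaned downward without any member at an unadjusted p under 0.05. Of 16 bile acid genes 14 were lower with a median of -0.15, including Cyp7a1, the rate-limiting enzyme of bile acid synthesis (-0.64 ± 0.58). This median was 0.01 in the liver channel alone. Of 18 cholesterol synthesis genes 16 were lower, among them Dhcr7, a late enzyme of the pathway, at -0.39 ± 0.19. Their median was -0.13, and lay between -0.20 and -0.01 with 1 animal left out. Among growth hormone dependent genes, 9 of 10 female-biased genes were lower, with Cyp26a1, which breaks down retinoic acid, at -0.65 ± 0.25. The median of these 10 was -0.28, but 0.01 in the liver channel alone. Of the male-biased genes, Cyp2a2 and Obp3 alone were well above background on all 10 arrays, so no direction is given for that list. Acute phase genes were lower in 18 of 21 cases (median -0.11, but 0.005 in the liver channel alone). A2m, the acute phase protease inhibitor of rats, ranged from -4.00 to -3.22 in controls and from -3.37 to -2.03 after furan (0.82 ± 0.36), and its spots were not well above background in animals 44 and 45.

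**Figure D4:**
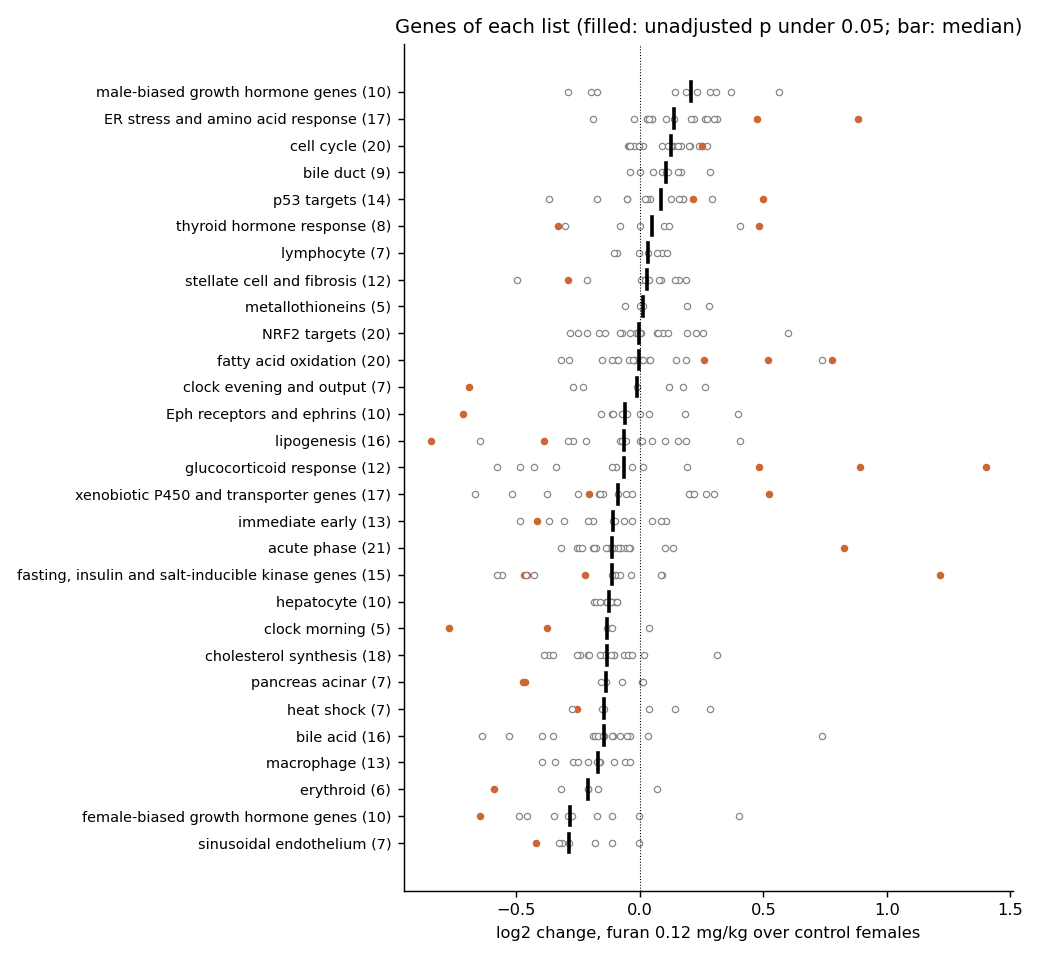
Log2 change (x axis) of each gene in the lists with at least 5 measured members (y axis, number measured in parentheses) for 5 females at 0.12 mg/kg against 5 controls. Filled points have an unadjusted p under 0.05 and black bars are list medians. Medians run from -0.29 to 0.21, the latter that of the male-biased genes. Of these, only Cyp2a2 and Obp3 were well above background on all 10 arrays. Single genes such as Zbtb16, Lpin1 and Herpud1 lie far from the rest of their lists.

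Cell type markers were read in the same way. In whole liver, fewer cells of a type and less RNA per cell cannot be told apart. All 10 hepatocyte markers, such as Alb and Apoa1, were well above background on all 10 arrays. All 10 were lower after furan, with changes from -0.19 to -0.09. Their median of -0.12 lay between -0.65 and -0.01 over the 26 other settings. All 13 macrophage markers measured were lower (median -0.17, from -0.40 for Cd5l to -0.04 for Lyz2), as were all 7 markers of the sinusoidal endothelium (median -0.29). In these 3 lists only Oit3 had an unadjusted p under 0.05 (-0.42 ± 0.18). The summed levels overlapped, as the mean log2 ratio of the macrophage list was 2.99 to 3.31 in controls and 2.13 to 3.03 after furan, and that of the endothelial list 2.18 to 2.61 and 1.58 to 2.42. Il1a and Il1b, made by macrophages among other cells, were lower in the same livers, and the part of macrophage content in them was not tested.

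Bile duct markers were higher in 8 of 9 cases, with a median of 0.11 that turned to -0.004 with median centring. Epcam was at 0.28 ± 0.17 and Krt19 at 0.05 ± 0.23. Of 12 stellate cell and fibrosis genes, 9 were higher with a median of 0.03, which was -0.13 in the 6 arrays of slides 1, 2 and 7. Col1a1 was at 0.04 ± 0.35 and Acta2 at 0.19 ± 0.20. The 3 lower genes were Lrat (-0.50 ± 0.39), Pdgfrb (-0.29 ± 0.14) and Col3a1 (-0.21 ± 0.34). Of the list, Pdgfrb alone had an unadjusted p under 0.05 by limma. Slc4a1, the anion exchanger of red cells, had a change of -0.59 ± 0.23, and 5 of 6 erythroid genes were lower (median -0.21). Lymphocyte and neutrophil lists had medians of 0.03 and -0.02, and their markers Cd3e, Cd2, Elane, Ngp and Cxcr2 were above background on no array, while Cd3d, Nkg7, S100a8 and Camp were above it on all 10. Of the pancreas genes, Prss1, Cela3b, Pnlip and Clps were above background on no array.

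The study named or followed 16 genes for furan in liver, of which 15 matched a tested probe with a gene name. Several of them were chosen on these same livers, so their values here are not independent evidence, while the thyroid hormone genes among them were taken for their known regulation. Baiap2l1, Lipogenin, Zbtb16 and Epha4 are described above. Akr7a3, a reductase of reactive aldehydes, was at 0.07 ± 0.40, Abcb1b, an export pump, at 0.20 ± 0.24, and Cyp3a62 at 0.27 ± 0.34. Without slide as a block these 3 stood at -0.18, -0.005 and -0.50. Fabp7, a fatty acid carrier, was at -0.18 ± 0.59 and Mt2A, a metal-binding protein, at 0.19 ± 0.63, and they turned to 0.15 in the liver channel alone and to -0.31 without slide as a block. Of the genes under thyroid hormone, Dio1 was at -0.30 ± 0.41, Thrsp at -0.08 ± 0.34, Me1 at -0.001 ± 0.26 and Mlxipl at 0.41 ± 0.23, of which Thrsp turned to 0.25 in the liver channel alone and Mlxipl to -0.16 without slide as a block. In Dio1 the low values came from animals 44 and 45, at 2.72 and 3.42. The other treated livers were at 4.15 to 4.77 and controls at 4.21 to 5.80. Of 8 measured thyroid hormone response genes, 4 were higher and 4 lower, with a median of 0.05. Klf9 (0.48 ± 0.19) and Dio3 (-0.33 ± 0.14) had an unadjusted p under 0.05 by limma, and neither was called.

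Along the dose series, the 0.12 mg/kg females did not stand apart from their neighbours. No probe was called between 0.12 and 0.03 mg/kg, with 420 of 17661 at an unadjusted p under 0.05 by limma. None was called between 0.12 and 0.5 mg/kg either, with 677 of 17661. Against the same 5 controls, the calls were 0 at 0.03 mg/kg, 3 at 0.5 mg/kg (0.017%) and 116 at 2 mg/kg (0.657%). At 0.03 mg/kg, 780 of 17661 probes had an unadjusted p under 0.05 by limma. The F test for any dose found 142 probes (0.804%). Because all 4 doses share the controls, an unusual control value moves every dose together.

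The changes of Baiap2l1 at 0.03, 0.12, 0.5 and 2 mg/kg were 0.72, 0.71, 0.52 and 0.55, which do not rise with dose. Those of Lipogenin were 0.57, 0.80, 0.74 and 0.59, and those of Zbtb16 were 1.80, 1.40, 1.09 and 1.66. Il1a gave -0.63, -0.72, -0.61 and -0.76. These genes thus had changes of like size at every dose, all measured against the same controls. Epha4 gave -0.78, -0.72, -0.96 and -1.10, and Gdf15 gave -0.14, -0.72, -0.27 and -1.03. At the highest dose, the probes for Zbtb16, Il1a, Epha4, Gdf15, Lurap1, Il1b and Mcm10 were called. Of the detoxification genes that the study picked on these livers, Akr7a3 was at 0.07 at 0.12 mg/kg and 1.77 at 2 mg/kg, Abcb1b at 0.20 and 0.95, and Cyp3a62 at 0.27 and 1.62, all 3 called at 2 mg/kg. The Abcb1b values are of its brightest probe, A_64_P010925, and another tested probe of this gene is not described. The wider lists had medians at 2 mg/kg of 0.05 for xenobiotic P450 and transporter genes and 0.21 for NRF2 targets.

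**Figure D5:**
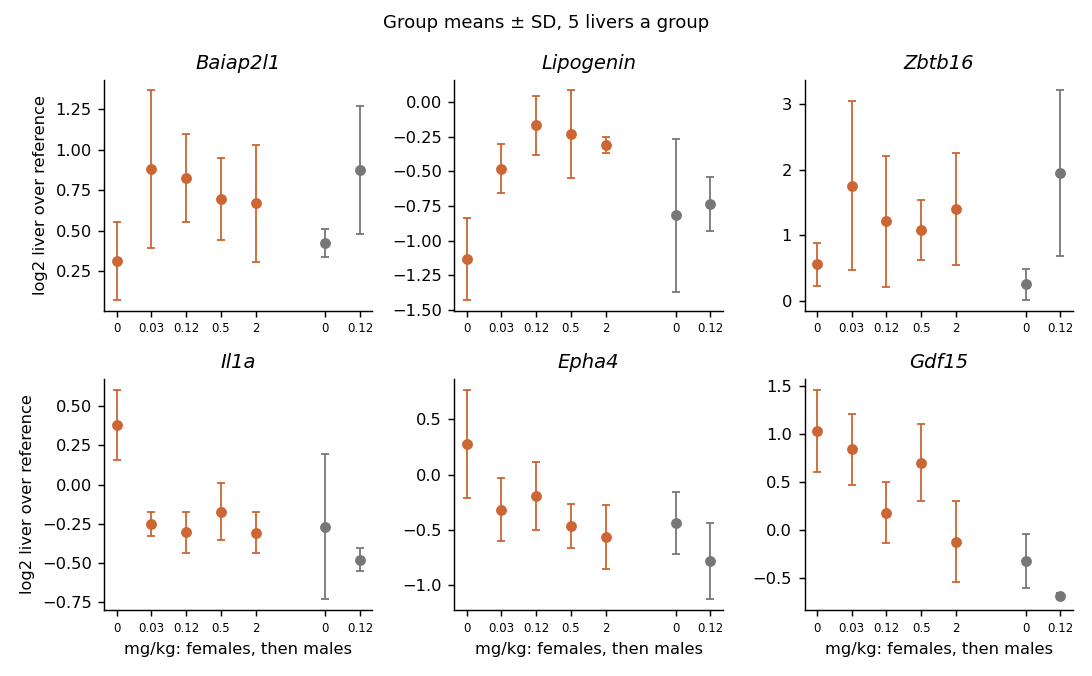
Mean ± SD (n = 5) of the log2 ratio (y axis) against dose (x axis, categories in mg/kg) for females (orange) and for males at 0 and 0.12 mg/kg (grey). The female control mean lies below all 4 dose means in Baiap2l1 and Lipogenin and above them in Il1a, with SDs that can overlap, and all doses are compared with these same controls.

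In males at 0.12 mg/kg, 30 probes were called (0.17%). For Baiap2l1, probe A_64_P035936 was 0.54 higher there and not called (adjusted p 0.0544), while A_64_P062133 was 0.83 higher and was called (adjusted p 0.0258). The calls included Zfp354a at 2.89, Zbtb16 at 2.14, Lpin1 at 1.61, Fkbp5 at 1.29 and Sgk1 at -1.61, against 1.07, 1.40, 1.21, 0.89 and -0.34 in females. No probe was called for a difference of the 0.12 mg/kg effect between the sexes (856 of 17661 at an unadjusted p under 0.05 by limma). None of these gaps is thus shown to differ, including Sgk1 (difference 1.28 ± 0.33, adjusted p 0.927).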

How the data were processed

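Liver RNA was hybridised with a reference RNA to 2-colour arrays of 62976 spots, of which 58717 measured transcripts with 30367 probes. Per the file headers, Agilent Feature Extraction 10.7.3.1 gave each spot a median intensity and local background, a log10 ratio of liver over reference that was background subtracted, detrended and dye normalised, and marks of spot quality. The deposited value table holds log2 ratios that the authors normalised in R. Of its 10 columns for these livers, 2 followed their own array most closely and 8 another array of the same group, and their medians were -0.06 to -0.04, so it was used without slide. Whether this table or the scanner files are out of order is not known, so an animal number given for a value may be wrong. No column for these 10 livers followed an array of another group most closely, but 2 columns elsewhere in the series did. Such a match compares the 2 sources with each other and cannot show that the group labels are right. How the ratios of the value table were scaled and centred is not given in the sources used here. 0 columns were left out.

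Intensities were corrected by normexp (offset 50) and loess within arrays in limma 3.58.1 under R 4.3.3, with version 1.17.8 of data.table, and spots marked as outliers were dropped. A probe was tested if any 1 group had its liver signal well above background on 4 or more arrays. All 49 arrays were fitted with 10 groups of sex and dose, a shared spread and slide as a fixed block. Tests were 2-sided with Benjamini-Hochberg adjustment. Names came from RefSeq's genes of the GRCr8 assembly, which matched 18004 of 30367 probes (59.3%). Figures used matplotlib 3.10.9. Steps were tested on simulated data.

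Named genes were the called probes, the 8 rises and 8 falls of lowest p at 1.5-fold or more, genes the study lists or follows, list members past an unadjusted p of 0.05 and 1.5-fold, and the 3 largest calls in males at 0.12 mg/kg. A few genes under these rules are not reported here. The groups and gene lists were chosen with earlier results of these data known. Alternatives covered slide, the arrays fitted, normalisation, filters, weights, the test and leaving out each animal.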

Additional observations from a re-analysis of the deposited data

Results flagged for a closer look

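Among the named genes, 74 sets of 5 livers were examined for a liver far from the other 4, and 4 were found, where chance gives about 1 in 20. Control 11 was highest for Cpt1a, at 2.87 against 1.49 to 1.84 in the other controls, and the change of Cpt1a was 0.96 without it. Control 4 was lowest for Cry1, at 0.46 against 1.06 to 1.28, and the change of Cry1 was -0.93 without it. The same control was highest for Fkbp5, at -0.97 against -1.51 to -1.40, and the change of Fkbp5 was 0.98 without it. Treated animal 42 was highest for Elovl6, at 1.25 against 0.05 to 0.34, and the change of Elovl6 was -1.13 without it. None of these changes passed the call rule with or without the liver named, and the cause of these values was not tested.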

How the results depend on the processing

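For 0.12 mg/kg against control females, limma called 1 probe, and 1 also with no filter on dim probes and with a filter on these groups alone. The count was 0 without slide as a block (1617 at an unadjusted p under 0.05), in the 10 arrays alone, in the 6 arrays of slides 1, 2 and 7, with median centring, quantile scaling, the scanner log ratio, the value table, the liver channel alone and the test against 1.5-fold, and without animals 44 and 45, an alternative chosen after seeing the data. It was 4 with slide as a random block, 2 without the dim male array at 0.03 mg/kg and 28 with array weights (14 each way). The 25 female arrays alone gave 1, which was Il1a and not Baiap2l1. Leaving out 1 animal gave 0 to 5, with 0 without treated animal 42, 49, 44 or 45 or control 7, 11 or 9, 2 without control 2, 3 without control 4 and 5 without animal 51.

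The sexes differed in 1 probe with array weights and in 0 otherwise. The F test found 142 probes, 16 without slide as a block, 261 with slide as a random block, 528 without the dim array, 10 with median centring, 260 with the scanner log ratio, 23 with the value table, 2836 with array weights, 39 in the liver channel and 73 to 232 with 1 animal left out (73 without control 7, 87 without animal 49, 83 without control 2 and 232 without animal 51). Ppara reversed to -0.15 without slide as a block and to -0.24 in the value table, which also has none. The cause was not tested. No paired analysis was possible because the groups share no animal number, other than the fit of the 6 arrays on slides 1, 2 and 7, which sets 1 animal of each group side by side on a slide. Slides 5 and 6 held no control, so their slide effects were estimated from arrays of other groups, and 5 animals a group limit the precision.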
